A study of Mus musculus with 18 samples.

Results

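The genes described here were 10 transcription factor genes of the trophoblast, the first lineage that separates from the embryo proper and the origin of the placenta. They were Cdx2, Eomes, Elf5, Gata2, Gata3, Hand1, Tfap2a, Tfap2c, Tead4 and Ets2. They were chosen by gene symbol for their known roles in that lineage, with earlier results of these data known. All 10 were found among the 53672 genes listed in each library, and all 10 passed the filter on low counts that left 18791 genes for testing.

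In the early embryo TEAD4, a DNA-binding partner of the Hippo pathway co-activator YAP, acts upstream of CDX2 and GATA3 in the outer cells that form the trophectoderm. CDX2, EOMES, ELF5, TFAP2C and ETS2 maintain the trophoblast stem cell state, GATA2 and GATA3 act in both stem and differentiated trophoblast, and HAND1 is known for the formation of trophoblast giant cells. Several of these genes have roles elsewhere: Eomes in the primitive streak, Hand1 and Gata2 in mesoderm and blood, Tfap2a in surface ectoderm, and Tfap2c in pluripotent and germ cells.

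RNA was sequenced from mouse Hdac1/2 lox/lox embryonic stem cells (ESCs), labelled as the line ES-E14TG2a, in which 4-hydroxytamoxifen (OHT) deletes the endogenous Hdac1 and Hdac2 deacetylase genes. Stable piggyBac transgenes encoded Flag-tagged HDAC1-WT, or HDAC1 with one substitution on the surface that contacts partner proteins, HDAC1-E63R or HDAC1-Y48E. Each of these 3 lines was sequenced untreated and after 1 µM OHT, both over 5 days by the labels, with 3 libraries in each of 6 groups and 18 in all. The study's methods describe exposure to OHT on the first of these days and further culture after it. All 6 groups carried the floxed alleles and a transgene, the cells were grown in serum and leukaemia inhibitory factor, and no group without a rescue transgene was analysed here. The authors call the libraries of a group biological replicates, and whether a line was 1 clone or a pool of transfected cells is not given in the sources used here.

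Counts on genes lay between 9019615 and 11454638 per library, so that 3 counts, the upper limit which a count of 0 allows, corresponded to between 0.248 and 0.343 CPM. CPM are counts scaled to a common library total after adjustment by edgeR's TMM factors, and intervals and limits on counts cover counting error only. Pluripotency factors, the markers of the labelled cell type, were detected in every group, with a summed level over 12 genes of 1771 to 5940 CPM. Hdac1 was lower in the untreated mutant lines (94.9 to 110 CPM) than in the untreated HDAC1-WT line (201 to 210 CPM), and OHT moved it by no more than 0.24 on the log2 scale in either direction. Hdac2 was 169 to 208 CPM in untreated and 112 to 133 CPM in OHT-treated HDAC1-WT cells (log2 fold change -0.66, adjusted p = 0.0125 by edgeR's quasi-likelihood test), and differed by -0.21 and -0.07 in the E63R and Y48E lines. Counts over a whole gene, which for Hdac1 may include the transgene, do not test the deletion. Replicate 3 of the untreated E63R group stood apart from the other 17 libraries, with a TMM factor of 0.814 against 0.955 to 1.11 and a mean correlation of 0.943 with its own group against 0.957 to 0.976, so the calls of the 10 genes that use it are also given without it.

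On a scale that corrects for gene length (RPKM, over the exons of GENCODE M21), Tfap2c had the highest mean level of the 10 genes in every group, from 14.7 ± 0.958 (SD, n = 3) in OHT-treated Y48E cells to 51.6 ± 4.65 in OHT-treated HDAC1-WT cells. Tead4 was the second or the third, between 10.8 ± 3.80 and 15.0 ± 1.17 RPKM. At the other end, Elf5 did not exceed a group mean of 0.173 RPKM and Cdx2 did not exceed 0.705. Hand1 went from 0.850 ± 0.137 RPKM in untreated to 8.23 ± 0.174 in OHT-treated Y48E cells and from 1.43 ± 0.232 to 14.5 ± 2.23 in E63R cells.

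**Figure D1:**
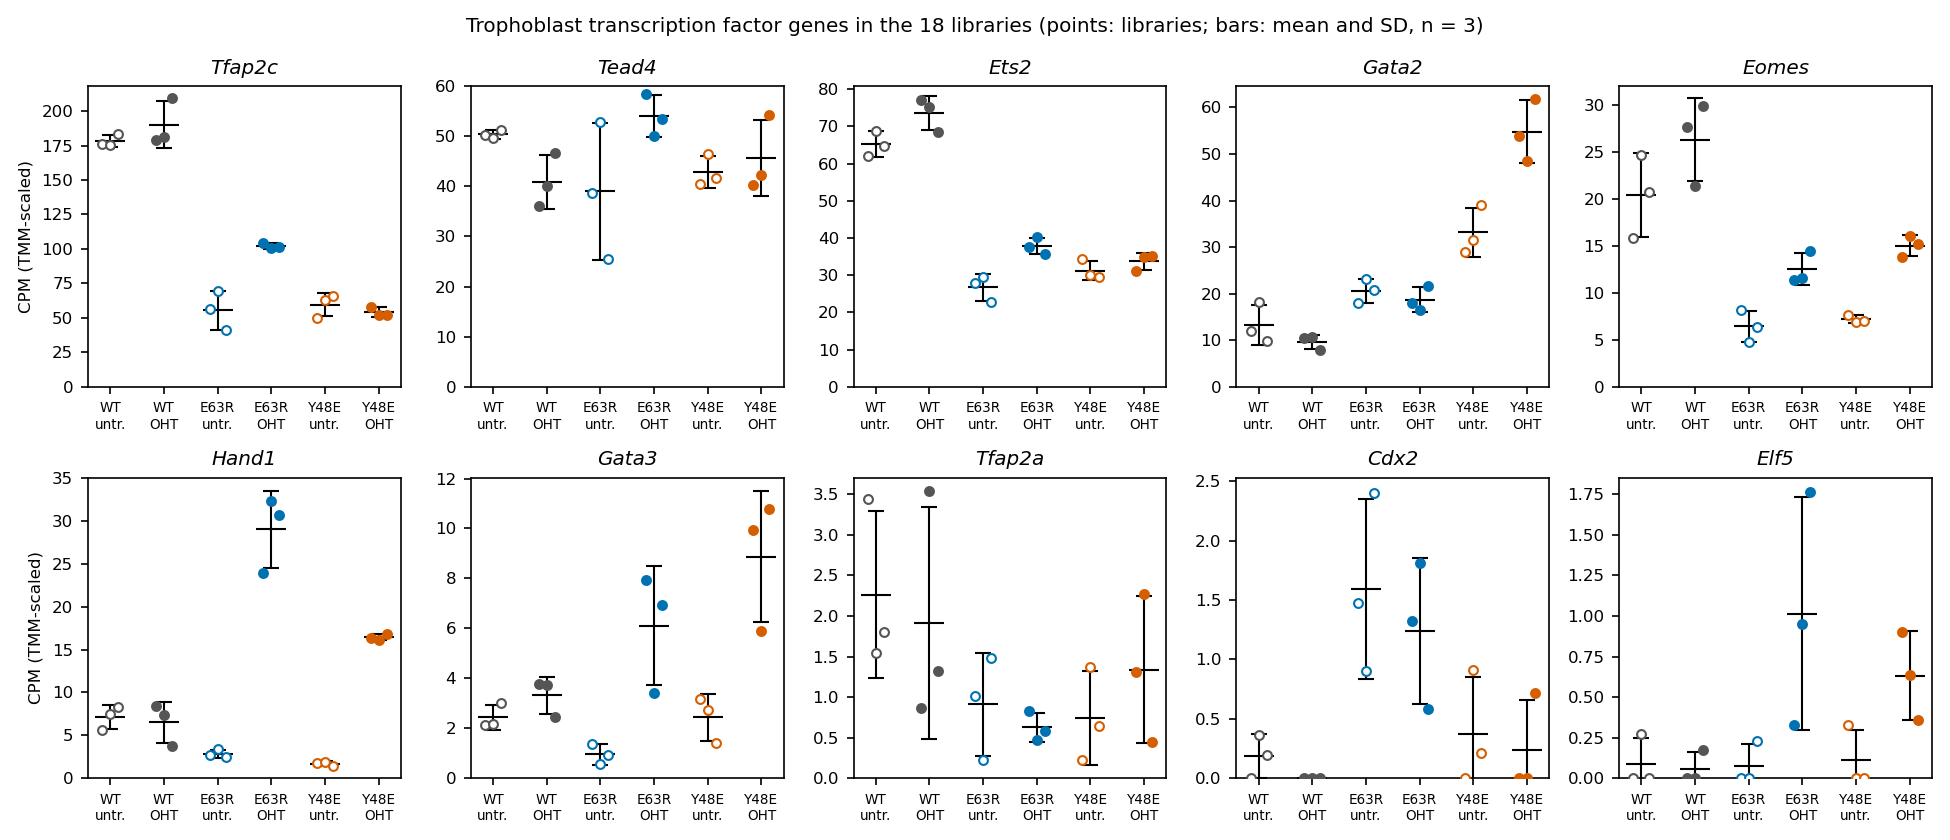
Level of each gene in TMM-scaled CPM (vertical axes, each starting at 0) in the 18 libraries, by line and treatment; open points are untreated and filled points OHT-treated libraries, and bars show the mean and SD of 3 libraries. Hand1 and Gata3 are higher in all OHT-treated libraries of both mutant lines than in the untreated libraries of the same line, whereas Tfap2c and Ets2 are highest in the HDAC1-WT line under both conditions.

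A gene was called changed where its adjusted p was under 0.01 and its log2 fold change was beyond 1 in either direction. In the HDAC1-WT line none of the 10 genes was called after OHT by edgeR, where 0.0373% of the 18791 tested genes were called up and 0.0160% down, and DESeq2 also called none. Of the 10, 1 (Gata2) had an unadjusted p under 0.05. In the E63R line 2 were called up, Hand1 and Gata3, where 4.74% of all genes were called up and 1.18% down. In the Y48E line 3 were called up, Hand1, Gata3 and Eomes, where the shares of all genes were 10.8% up and 5.84% down. None of the 10 was called down after OHT in any line by edgeR or DESeq2. Their median log2 fold change was 0.05, 0.69 and 0.78 in HDAC1-WT, E63R and Y48E cells with genes near the counting limit set at their bound, beside 0.00, 0.03 and 0.05 for all tested genes. With those genes left out it was -0.02, 0.50 and 0.72. Without replicate 3 of the untreated E63R group the count in E63R cells was again 2. RNA was taken from whole cultures, so a gene used by more cells and more RNA per cell cannot be told apart.

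Hand1 encodes a basic helix-loop-helix factor and is annotated on mm10 at chr11:57828705-57832818 on the minus strand. It was at 5.58, 7.52 and 8.30 CPM in the untreated and at 8.38, 7.35 and 3.80 CPM in the OHT-treated HDAC1-WT libraries. In the E63R line it was at 2.68, 3.39 and 2.52 CPM without and at 23.9, 32.3 and 30.7 CPM with OHT. The groups of the HDAC1-WT line overlapped, whereas the lowest OHT-treated E63R library was far above the highest untreated one. In the Y48E line Hand1 was at 1.76, 1.94 and 1.40 CPM without and at 16.4, 16.1 and 16.8 CPM with OHT. The rise was 10.1-fold in E63R cells (log2 fold change 3.34, SE 0.27, adjusted p = 1.8e-08) and 9.64-fold in Y48E cells (3.27, SE 0.29, adjusted p = 8.74e-09), against a log2 fold change of -0.13 (SE 0.25, adjusted p = 0.937) in HDAC1-WT cells. The effect of OHT differed from that in the HDAC1-WT line in both mutant lines by the interaction test, by 3.47 (SE 0.37, adjusted p = 5.67e-06) for E63R and 3.40 (SE 0.39, adjusted p = 1.26e-06) for Y48E, where 1.25% and 4.65% of all genes were called with a higher effect and 0.436% and 3.97% with a lower one. Between the mutant lines the effects differed by -0.07 (Y48E minus E63R, 95% interval -0.90 to 0.76). When untreated E63R replicate 3 was left out, the E63R effect was 3.26 and its difference from HDAC1-WT 3.39.

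Hand1 is also a mesoderm gene, and the level of other genes of that list was followed beside it. Of 9 mesoderm and endothelial markers, which include Hand1 and Gata2, 8 were tested, and 2 of them, Hand1 and Kdr, were called up in both mutant lines, with Pecam1, an endothelial adhesion gene, called down in Y48E cells (log2 fold change -1.30, adjusted p = 9.61e-08). The shares of all genes called were 4.74% up in E63R cells, and 10.8% up and 5.84% down in Y48E cells. The summed level of all 9 was 113 to 147 CPM in untreated and 149 to 163 CPM in OHT-treated E63R cells, and 169 to 190 and 136 to 152 CPM in Y48E cells. In HDAC1-WT cells it was 189 to 226 and 206 to 212 CPM. These sums include Hand1 and Gata2 themselves. The other 7 genes together were at 89.4 to 126 CPM before and 101 to 121 CPM after OHT in E63R cells, which overlapped, and at 138 to 150 and 57.6 to 81.3 CPM in Y48E cells. Pecam1 made up most of the latter fall, from a mean of 142 to 57.4 CPM. The median log2 fold change of the 8 tested genes, Hand1 and Gata2 included, was 1.19 in Y48E cells, with 7 above 0. It was 0.21 in E63R cells, with 4 above 0, and -0.25 in HDAC1-WT cells, with 3 above 0. The part of such cells in the change of Hand1 was not tested.

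Gata3 encodes a zinc-finger factor that binds GATA motifs, and lies at chr2:9857078-9890034 on the minus strand. In the HDAC1-WT line it was at 2.14, 2.17 and 3.00 CPM without and at 3.76, 3.72 and 2.47 CPM with OHT, and these groups overlapped. The E63R libraries had 1.39, 0.565 and 0.915 CPM without and 7.95, 3.43 and 6.95 CPM with OHT. In the Y48E line it was at 3.19, 2.73 and 1.40 CPM without and at 9.94, 5.89 and 10.8 CPM with OHT. Both mutant lines were higher after OHT with no overlap, as were 21.2% and 31.9% of all tested genes in those lines. The rise was 6.24-fold in E63R cells (log2 fold change 2.64, SE 0.45, adjusted p = 1.73e-04) and 3.63-fold in Y48E cells (1.86, SE 0.40, adjusted p = 7.71e-04). The difference from the HDAC1-WT effect of 0.44 did not pass the threshold in either line (E63R 2.20, SE 0.61, adjusted p = 0.0334; Y48E 1.42, SE 0.57, adjusted p = 0.0821). The untreated E63R libraries held 5 to 15 counts of the gene, and in a fit of the E63R libraries alone its adjusted p was 0.0139, which does not pass. Without replicate 3 of the untreated E63R group the E63R effect was 2.60 (adjusted p = 7.74e-05) and its difference from HDAC1-WT 2.16 (adjusted p = 0.0202). Of the Gata3 exons, 3.90% overlap the antisense gene Gm13256 and 1.94% the gene 9230102O04Rik on the same strand. These held 146 and 53 counts over all libraries, beside 766 of Gata3.

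Of the 10 genes, 7 had a promoter window in the RefSeq table for GRCm38.p6 (mm10), of 300 bases from 250 before to 50 after a transcription start, with 10 windows among them. Windows were searched on both strands for motifs of the factor families described. The motif AGATAA was used for factors of the GATA family. For TEAD factors, the partners of YAP, the motif was GGAATG. For AP-2 factors, the products of Tfap2a and Tfap2c, it was GCCNNNGGC. For the ETS family, to which Elf5 and Ets2 belong, it was CCGGAA, and the TATA box (TATAAA) was added as a core promoter element. The AP-2 letters occurred in 3 of the 10 windows, one each of Gata3, Gata2 and Cdx2, and in 16.6% of all 32851 windows. The TEAD letters occurred in 2 windows (14.7% of all), the ETS letters in 1 (14.9%), and the GATA and TATA letters in none (11.2% and 13.6%). The windows with the AP-2 letters are shown because 2 of the genes described encode AP-2 factors, with matches in capitals. Gata3 was the one gene called in both mutant lines that had a window, and Gata2 and Cdx2 were added after their values were seen.
Gata3, chr2:9878551-9878850, minus strand: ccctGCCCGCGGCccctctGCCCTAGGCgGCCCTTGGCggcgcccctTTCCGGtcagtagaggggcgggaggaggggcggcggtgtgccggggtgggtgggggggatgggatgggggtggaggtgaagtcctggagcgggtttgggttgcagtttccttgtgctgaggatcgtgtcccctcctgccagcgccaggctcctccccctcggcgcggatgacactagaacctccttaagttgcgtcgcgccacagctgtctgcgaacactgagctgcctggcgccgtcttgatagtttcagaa
Gata2, chr6:88198414-88198713, plus strand: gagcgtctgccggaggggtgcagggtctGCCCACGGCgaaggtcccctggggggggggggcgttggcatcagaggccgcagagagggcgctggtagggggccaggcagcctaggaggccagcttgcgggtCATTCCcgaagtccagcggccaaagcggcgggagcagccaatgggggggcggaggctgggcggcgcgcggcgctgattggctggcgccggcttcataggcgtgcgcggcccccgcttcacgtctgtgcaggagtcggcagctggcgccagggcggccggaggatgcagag
Cdx2, chr5:147307200-147307499, minus strand: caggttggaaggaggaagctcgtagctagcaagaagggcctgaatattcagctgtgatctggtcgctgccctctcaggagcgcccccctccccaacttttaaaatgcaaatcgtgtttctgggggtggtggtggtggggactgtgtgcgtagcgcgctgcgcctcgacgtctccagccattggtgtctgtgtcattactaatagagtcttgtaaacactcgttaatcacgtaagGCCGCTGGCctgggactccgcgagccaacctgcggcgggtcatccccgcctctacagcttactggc

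In the Gata3 window the 3 AP-2 matches began 246, 231 and 221 bases before the start site, and the fourth run of capitals is the ETS match on the other strand, 203 bases before it. In the Gata2 window the second run of capitals is the TEAD match on the other strand. The window of Cdx2 held a single AP-2 match, 16 bases before the start. The Gata3 window was 67.3% G and C with 22 CG pairs, against a median of 52.7% and 7 over all windows. The Gata3 and Gata2 windows belong to start sites inside the annotated spans of these genes. These matches are runs of letters and were not tested as binding sites.

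Gata2, the paralogue of Gata3, followed another pattern. It lies at chr6:88193891-88207032 on the plus strand. Its mean was lowest in the HDAC1-WT line, at 12.0, 18.1 and 9.90 CPM without and 10.5, 10.6 and 7.86 CPM with OHT. In the E63R line it was at 17.9, 23.2 and 20.8 CPM without and at 18, 16.4 and 21.6 CPM with OHT. The Y48E libraries had 29.0, 31.4 and 39.0 CPM without and 53.9, 48.4 and 61.9 CPM with OHT. The Y48E groups overlapped neither each other nor any other group, and the OHT-treated Y48E libraries were the highest of the 18. After OHT the log2 fold change was 0.72 in Y48E cells (SE 0.19, adjusted p = 0.00367, under the limit of 1 on the log2 scale, where 30.9% of all genes had such an adjusted p), -0.14 in E63R cells (95% interval -0.53 to 0.25) and -0.47 in HDAC1-WT cells (-0.88 to -0.06, adjusted p = 0.447). The Y48E effect exceeded the HDAC1-WT effect by 1.19 (SE 0.28, adjusted p = 0.00367), and the E63R effect by 0.86 (SE 0.27, adjusted p = 0.0699), which did not pass. The first of these calls was lost on leaving out any one of 5 libraries, with a difference of 0.89 (adjusted p = 0.0211) without replicate 2 of untreated HDAC1-WT, 1.06 without replicate 3 of OHT-treated HDAC1-WT, 1.1 and 1.15 without replicates 1 and 2 of untreated Y48E, and 1.1 without replicate 3 of OHT-treated Y48E (adjusted p between 0.0112 and 0.0145).

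Eomes encodes a T-box factor and lies at chr9:118478212-118486132 on the plus strand. The antisense gene Gm33460 overlaps 2.84% of the Eomes exons and held 457 counts over all libraries, beside 2786 of Eomes. The level of Eomes was compared between groups. Eomes was at 15.8, 24.6 and 20.8 CPM in untreated and 27.6, 21.4 and 29.9 CPM in OHT-treated HDAC1-WT libraries. The E63R libraries had 8.13, 4.74 and 6.40 CPM without and 11.4, 11.6 and 14.5 CPM with OHT. In the Y48E line it was at 7.70, 6.95 and 7.0 CPM without and at 13.9, 16.1 and 15.2 CPM with OHT. It rose in both mutant lines with no overlap and stayed below the lowest OHT-treated HDAC1-WT library in each. The log2 fold change was 1.06 in Y48E cells (SE 0.22, adjusted p = 4.04e-04, called), 0.95 in E63R cells (SE 0.22, adjusted p = 0.00278, under the limit of 1, where 14.3% of all genes had such an adjusted p, and 0.94 with an adjusted p of 0.00246 without untreated replicate 3) and 0.37 in HDAC1-WT cells (SE 0.20, adjusted p = 0.575). The E63R effect was 1.16 without replicate 1 of the untreated and 1.01 without replicate 1 of the OHT-treated E63R group, both past the limit. No difference of the effects between lines passed (Y48E minus HDAC1-WT 0.69, adjusted p = 0.095; E63R minus HDAC1-WT 0.58, adjusted p = 0.27; Y48E minus E63R 0.11, 95% interval -0.49 to 0.71).

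Eomes is also a gene of the primitive streak. Of 8 streak and mesendoderm markers, Eomes among them, 4 were tested. Eomes was the one called in Y48E cells, where 10.8% of all genes were called up. None was called in E63R cells by edgeR (1 at an unadjusted p under 0.05) or DESeq2. The summed level of the list was 6.44 to 12.5 CPM in untreated and 15.1 to 17.1 CPM in OHT-treated E63R cells, and 11.2 to 11.5 and 20.7 to 22.8 CPM in Y48E cells. In HDAC1-WT cells it was 27.3 to 40.1 and 31.0 to 41.9 CPM, and much of each sum was Eomes itself.

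Tfap2c, an AP-2 factor gene at chr2:172549593-172558622 on the plus strand, separated the mutant lines after OHT. It was at 176, 175 and 183 CPM in untreated and 179, 181 and 210 CPM in OHT-treated HDAC1-WT libraries. In the E63R line it was at 56.3, 69.5 and 41.2 CPM without and at 105, 101 and 101 CPM with OHT. The Y48E libraries had 49.9, 62.9 and 65.7 CPM without and 58.2, 52.1 and 52.1 CPM with OHT. The E63R groups did not overlap and the Y48E groups did. After OHT it rose in E63R cells by 0.88 on the log2 scale (SE 0.14, adjusted p = 9.92e-05), short of the limit of 1, and did not pass in Y48E cells (-0.14, 95% interval -0.41 to 0.14) or HDAC1-WT cells (0.09, -0.17 to 0.36). The Y48E effect was below the E63R effect by 1.01 (log2 difference -1.01, SE 0.20, adjusted p = 0.00336), where 0.990% of all genes were called with a lower and 0.319% with a higher effect.

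This call on Tfap2c lay close to its limit. Without replicate 3 of the untreated E63R group, which had the lowest Tfap2c of its group, the difference was -0.84 (adjusted p = 1.62e-05) and the E63R effect 0.70 (adjusted p = 5.12e-07). The call was also lost without replicate 2 (-0.97) or 3 (-0.94) of untreated Y48E, without replicate 2 (-0.99) or 3 (-0.98) of OHT-treated Y48E and without replicate 1 of OHT-treated E63R (-0.996). Leaving out replicate 2 of untreated E63R instead gave an E63R effect of 1.06, past the limit of 1.

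Ets2 and Tead4 changed by less than the limit of 1 with OHT in every line. Ets2, an ETS-domain factor gene at chr16:95702075-95721051 on the plus strand, was at 27.8, 29.6 and 22.8 CPM in untreated and 37.5, 40.2 and 35.8 CPM in OHT-treated E63R libraries, which did not overlap (log2 fold change 0.50, SE 0.12, adjusted p = 0.00471). The value was 0.40 (adjusted p = 0.0136) without replicate 3 of the untreated group. Its HDAC1-WT libraries were higher, at 62, 68.9 and 64.7 CPM without and 77.1, 75.2 and 68.6 CPM with OHT. Its Y48E libraries had 34.3, 29.9 and 29.5 CPM without and 31, 34.8 and 35.3 CPM with OHT. In Y48E cells its groups overlapped (0.11, 95% interval -0.13 to 0.35), as they did in HDAC1-WT cells (0.18, -0.05 to 0.41). Tead4, at chr6:128224288-128300823 on the minus strand, was at 38.7, 52.9 and 25.5 CPM in untreated and at 58.4, 50 and 53.4 CPM in OHT-treated E63R libraries. The first of these groups had the widest spread of any Tead4 group (39.0 ± 13.7 CPM, n = 3), with replicate 3 lowest, and the log2 fold change of 0.47 did not pass (adjusted p = 0.0608, 0.24 without replicate 3). In Y48E cells it was 0.09 (95% interval -0.26 to 0.44) and in HDAC1-WT cells -0.30 (-0.65 to 0.05). The HDAC1-WT libraries held Tead4 at 50.2, 49.6 and 51.3 CPM without and 36.0, 40.0 and 46.6 CPM with OHT. They were lower after OHT with no overlap, as were 9.64% of all genes, but did not pass (adjusted p = 0.636 by edgeR). Leaving out replicate 2 of untreated E63R raised the difference of the Tead4 effect between E63R and HDAC1-WT cells from 0.77 (adjusted p = 0.0803) to 1.04 (adjusted p = 0.00458), whereas leaving out replicate 3 lowered it to 0.54 (adjusted p = 0.0448).

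Tfap2a (chr13:40715302-40738376), Cdx2 (chr5:147300805-147307270), both on the minus strand, and Elf5 (chr2:103411688-103450989, plus strand) were near the counting limit. Tfap2a, the other AP-2 factor gene, held 2 to 39 counts per library and between 0.220 and 3.54 CPM, its groups overlapped after OHT in every line, and its intervals were wide (E63R -2.11 to 1.08, Y48E -0.72 to 2.40). Parts of its exons, 5.41% and 7.75%, overlap the antisense genes Gm47061 and Gm26688. Cdx2, the homeobox factor that defines the trophectoderm, had counts of 0 in all 3 OHT-treated HDAC1-WT libraries, which allows up to 0.265 to 0.289 CPM. It had 6 counts in the untreated HDAC1-WT libraries together, 10 and 8 in the Y48E libraries without and with OHT, and 45 and 41 in the E63R libraries. Cdx2 was thus present in the E63R line before OHT, and treated against untreated the ratio of its counts was 0.789 (95% counting interval 0.504 to 1.23). Untreated E63R against untreated HDAC1-WT the ratio was 8.39 (3.57 to 24.1), and E63R was higher with no overlap, as were 17.1% of all genes, but edgeR did not call the difference (adjusted p = 0.0772). Cdx2 passed the filter on low counts through the E63R libraries, where it was highest, so this comparison is a description.

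Elf5, an ETS-family gene regarded as a gatekeeper of the trophoblast lineage, had counts of 0, 0 and 2 in the untreated and 4, 10 and 18 in the OHT-treated E63R libraries. In the Y48E line it had 3, 0 and 0 counts without and 9, 7 and 4 with OHT. In both lines every treated library held more than any untreated one, as did 21.2% and 31.9% of all tested genes in E63R and Y48E cells. Elf5 passed the filter on low counts through these OHT-treated libraries, where it was highest, so this is a description. The HDAC1-WT libraries held 3 counts in all without and 2 with OHT. The ratio of counts, scaled to depth, was 13.9 in E63R cells (95% counting interval 3.54 to 119) and 5.64 in Y48E cells (1.67 to 29.6). Neither passed edgeR's test across libraries (adjusted p = 0.0597 and 0.154), and neither gene was called in the effects of OHT or between untreated lines in this model or under the other settings of the methods.

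**Figure D2:**
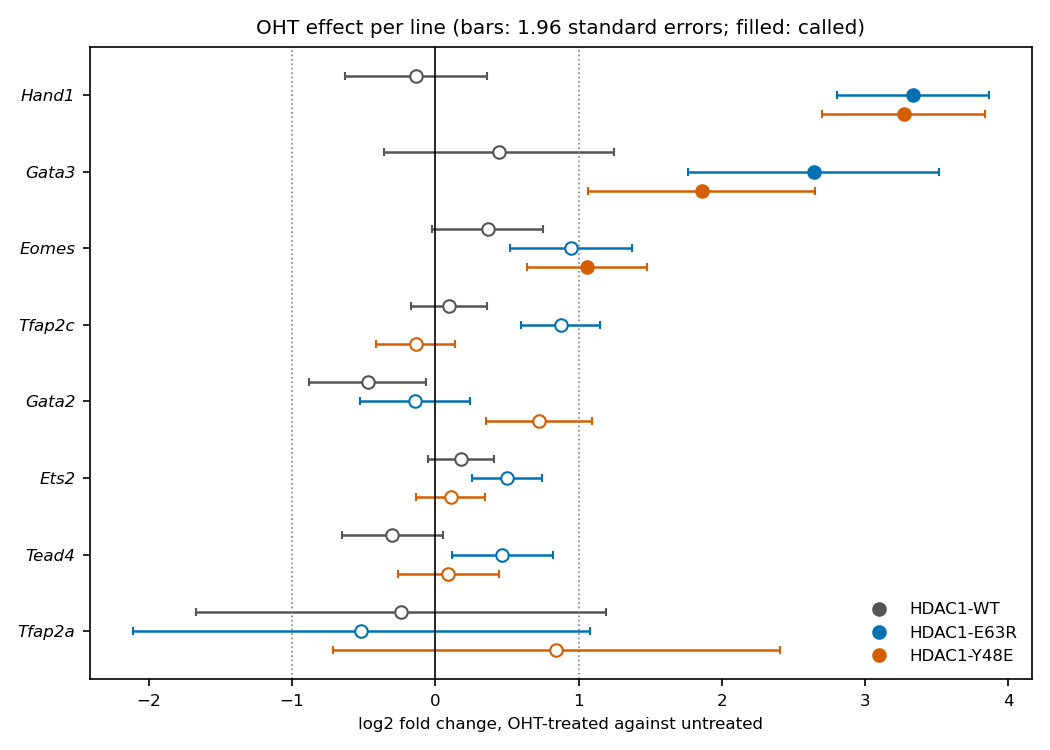
Log2 fold change of OHT-treated against untreated libraries (horizontal axis) for 8 of the 10 genes, with Cdx2 and Elf5 left out, by line; points are edgeR estimates, bars 1.96 standard errors, filled points are called and dotted lines mark a log2 fold change of 1 in either direction. Hand1 lies near 3.3 in both mutant lines and near 0 in HDAC1-WT cells, and Tfap2c is above 0 in the E63R line alone by its interval.

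Before OHT the mutant lines already differed from the HDAC1-WT line. Of the 10 genes, 4 were called lower in untreated E63R than in untreated HDAC1-WT cells, Eomes, Hand1, Tfap2c and Ets2, where 4.33% of all genes were called down and 3.32% up. The same 4 were called lower in untreated Y48E cells, where 2.95% of all genes were called down, and Gata2 was called higher, where 2.62% were called up. Both comparisons share the untreated HDAC1-WT libraries. Hdac1 itself was lower in both untreated mutant lines, by 0.96 and 1.02 on the log2 scale, and its part in these differences was not tested.

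The largest of these differences was that of Hand1 in the Y48E line (log2 difference -2.06, SE 0.30, adjusted p = 2.51e-05). In the E63R line it was -1.32 (adjusted p = 0.00103, and 0.0319 in a fit of those 2 groups alone, which does not pass). Tfap2c was lower by 1.68 in E63R (log2 difference -1.68, adjusted p = 1.49e-08) and by 1.58 in Y48E cells (-1.58, adjusted p = 4.78e-08). Eomes had differences of -1.66 (adjusted p = 5.41e-06) and -1.50 (adjusted p = 2.25e-05), and Ets2 of -1.29 (adjusted p = 8.5e-08) and -1.06 (adjusted p = 1.43e-06). Gata2 was higher by 1.31 in Y48E cells (adjusted p = 4.87e-05) and by 0.62 in E63R cells, which did not pass (adjusted p = 0.0241). Gata3 was lower in every untreated E63R library than in any untreated HDAC1-WT library, as were 18.1% of all genes (-1.31, adjusted p = 0.0379, not called), and its difference in Y48E cells was 0.00 (95% interval -0.82 to 0.83). When untreated E63R replicate 3 was left out, the same count of 4 was called lower, with Eomes at -1.64, Tfap2c at -1.50, Hand1 at -1.23 and Ets2 at -1.18, and Gata3 was at -1.27 (adjusted p = 0.0607).

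Set against the OHT-treated HDAC1-WT libraries, a comparison added after the data were seen, the genes fell into those above and those below the HDAC1-WT level. Hand1 passed from below it to above it in both mutant lines, by 2.16 in E63R (SE 0.25, adjusted p = 6.63e-07) and 1.34 in Y48E cells (SE 0.25, adjusted p = 1.25e-04) on the log2 scale. Gata3 was above it in Y48E cells (1.42, adjusted p = 0.00516) and did not pass in E63R cells (0.88, adjusted p = 0.0962). Gata2 was above it by 2.50 in Y48E (adjusted p = 1.75e-09) and 0.95 in E63R cells (adjusted p = 0.00115, under the limit of 1). Eomes remained below it, by 1.07 in E63R (log2 difference -1.07, adjusted p = 3.14e-04) and 0.81 in Y48E cells (-0.81, adjusted p = 0.00233). Ets2 (-0.96 and -1.13) and Tfap2c (-0.90 in E63R and -1.81 in Y48E cells) were also below it, each with an adjusted p under 0.01. Cdx2 was also called in E63R cells, where 41 counts stood against 0 in the OHT-treated HDAC1-WT libraries. It had passed the filter on low counts through the E63R libraries, so this call is a description. Of all genes, 5.93% and 3.43% were called above and below in E63R cells, and 11.0% and 7.23% in Y48E cells.

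**Figure D3:**
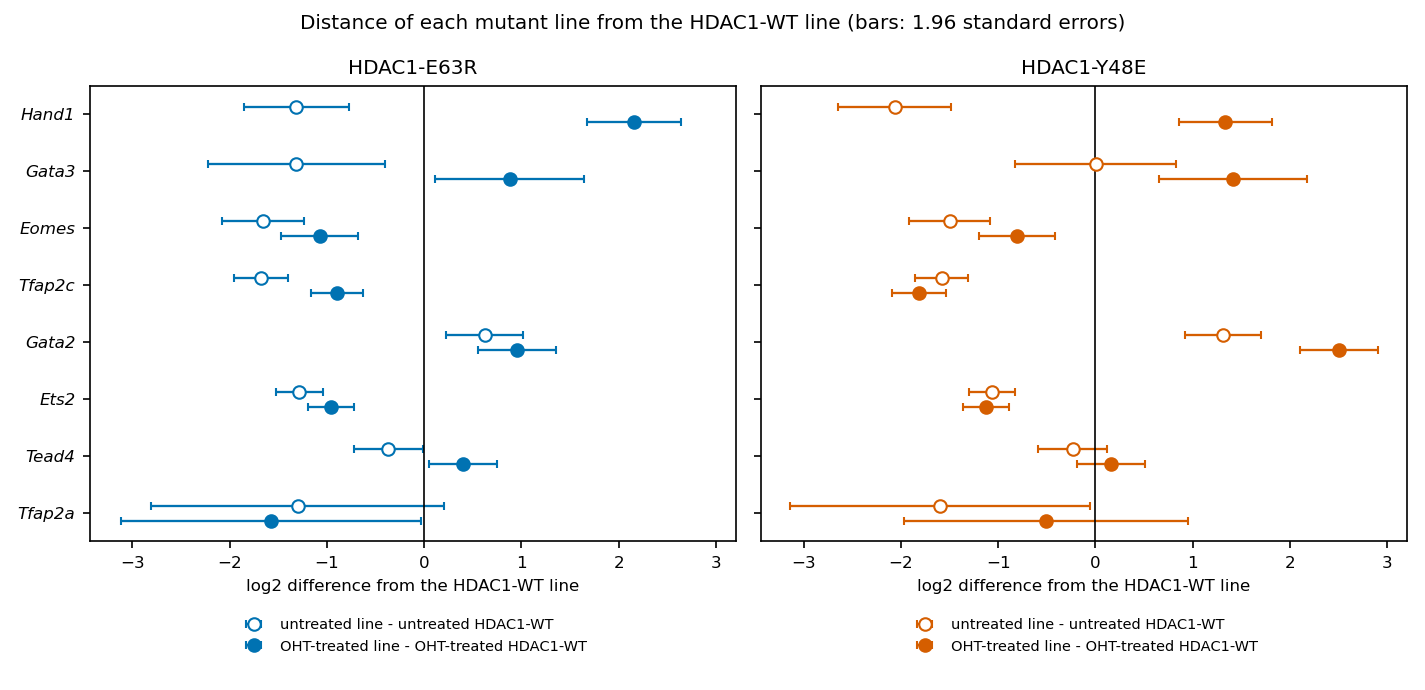
Log2 difference of each mutant line from the HDAC1-WT line under the same condition (horizontal axis); open points compare untreated and filled points OHT-treated libraries, and bars are 1.96 standard errors. Hand1 passes from below to above 0 in both lines, Tfap2c, Ets2 and Eomes lie below 0 under both conditions, and Gata2 lies above 0 under both, furthest in the OHT-treated Y48E cells at 2.50.

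The order of the group means summarises these patterns. For Hand1 it was OHT-treated E63R (29.0 ± 4.45 CPM, n = 3), OHT-treated Y48E (16.4 ± 0.348), the 2 HDAC1-WT groups, which overlapped, untreated E63R (2.86 ± 0.464) and untreated Y48E (1.70 ± 0.273), with no overlap between the other neighbours. For Gata3 the OHT-treated Y48E (8.88 ± 2.62 CPM) and E63R groups (6.11 ± 2.37) overlapped at the top, and untreated E63R (0.955 ± 0.412) was apart at the bottom. For Tfap2c both HDAC1-WT groups overlapped at the top (190 ± 17.1 and 178 ± 4.27 CPM), OHT-treated E63R was apart below them (102 ± 2.1), and the remaining 3 groups overlapped between 54.1 and 59.5 CPM. Ets2 had the same order at the top, with both HDAC1-WT groups above OHT-treated E63R (37.8 ± 2.22 CPM).

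Other genes of the trophoblast were followed as a list of 28, of which 20 were tested. After OHT 9 were called up and 1 down in the E63R line and 9 up and 2 down in the Y48E line, against 4.74% and 1.18%, and 10.8% and 5.84%, of all genes. None was called in the HDAC1-WT line by edgeR (4 at an unadjusted p under 0.05) or DESeq2. Their median log2 fold change was 1.15 in E63R cells with genes near the counting limit set at their bound, 1.37 in Y48E cells and 0.07 in HDAC1-WT cells. Called up in both mutant lines were 8, Fgfr2, Krt8, Krt18, Peg10, Plet1, Wnt7b, Rhox6 and Rhox9. Without replicate 3 of the untreated E63R group the E63R count was 10 up and 1 down.

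Fgfr2 encodes the receptor through which FGF4 maintains trophoblast stem cells, and was at 6.44 ± 1.05 CPM (n = 3) in untreated and 26.1 ± 5.30 CPM in OHT-treated E63R cells (log2 fold change 2.02, adjusted p = 1.41e-06). Wnt7b, a WNT ligand needed in the placenta, rose by 2.78 in E63R and 2.62 in Y48E cells on the log2 scale, which the next values share. Peg10, an imprinted gene derived from a retrotransposon and required in the placenta, rose by 2.64 and 3.66, from 117 ± 0.859 to 1476 ± 37.7 CPM in the Y48E line. Krt8 and Krt18, the keratin pair of simple epithelia including the trophectoderm, rose by 3.72 and 3.43 in Y48E and by 1.71 and 1.16 in E63R cells. The study had named Krt8 as raised in the same data. Msx2, a homeobox factor gene, rose by 2.36 in E63R cells. Other genes of the list fell. Ascl2, a helix-loop-helix factor of the spongiotrophoblast, fell in E63R cells (log2 fold change -1.31, adjusted p = 0.00886), and Cdh3 (-1.26) fell in Y48E cells. The untreated E63R libraries held Ascl2 at 11.3, 12.5 and 29.6 CPM, the last in replicate 3, against 5.71 to 9.68 CPM after OHT. Whether Ascl2 was called without that replicate is not given here. Of genes of differentiated placental cells, Prl2c2, Prl3b1 and Synb were at 0 counts in all 18 libraries, while others held low counts. Gcm1, a factor of the placental labyrinth, and Syna, a syncytin gene, held 3 and 4 counts over the untreated and 36 and 72 over the OHT-treated E63R libraries. In Y48E cells Gcm1 went from 0 to 16 counts, Syna from 9 to 27 and Plac1, a placental gene, from 5 to 89, and the placental lactogen gene Prl3d1 held 7 after OHT. Gcm1 and Prl3d1 did not pass the filter on low counts, and neither Syna nor Plac1 was called in either line.

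The Hippo pathway, through which TEAD4 is regulated, was followed as 17 genes, all tested. After OHT 6 were called up in the E63R and 6 in the Y48E line, 5 of them in both, and none was called down, where 4.74% and 10.8% of all genes were called up. In the HDAC1-WT line edgeR called none (4 at an unadjusted p under 0.05), and neither did DESeq2. The median log2 fold change was 0.51 in E63R and 0.33 in Y48E cells. The 5 were the kinase gene Lats2 (2.29 in E63R, 2.37 in Y48E), the YAP-binding scaffold gene Amot (2.42 and 2.20) and the target genes of YAP and TEAD Ctgf (1.72 and 2.79), Cyr61 (1.35 and 2.49) and Ankrd1 (1.85 and 5.27). Lats2 was at 4.96 ± 1.29 CPM in untreated and 25.7 ± 2.44 CPM in OHT-treated Y48E cells. Yap1 itself had values of -0.09 in HDAC1-WT, -0.50 in E63R (adjusted p = 0.00441) and -0.33 in Y48E cells. With replicate 3 of the untreated E63R group left out, 4 of the 17 were called up in that line. The change of Tead4 in the same cells was 0.47 and 0.09, neither past the threshold.

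**Figure D4:**
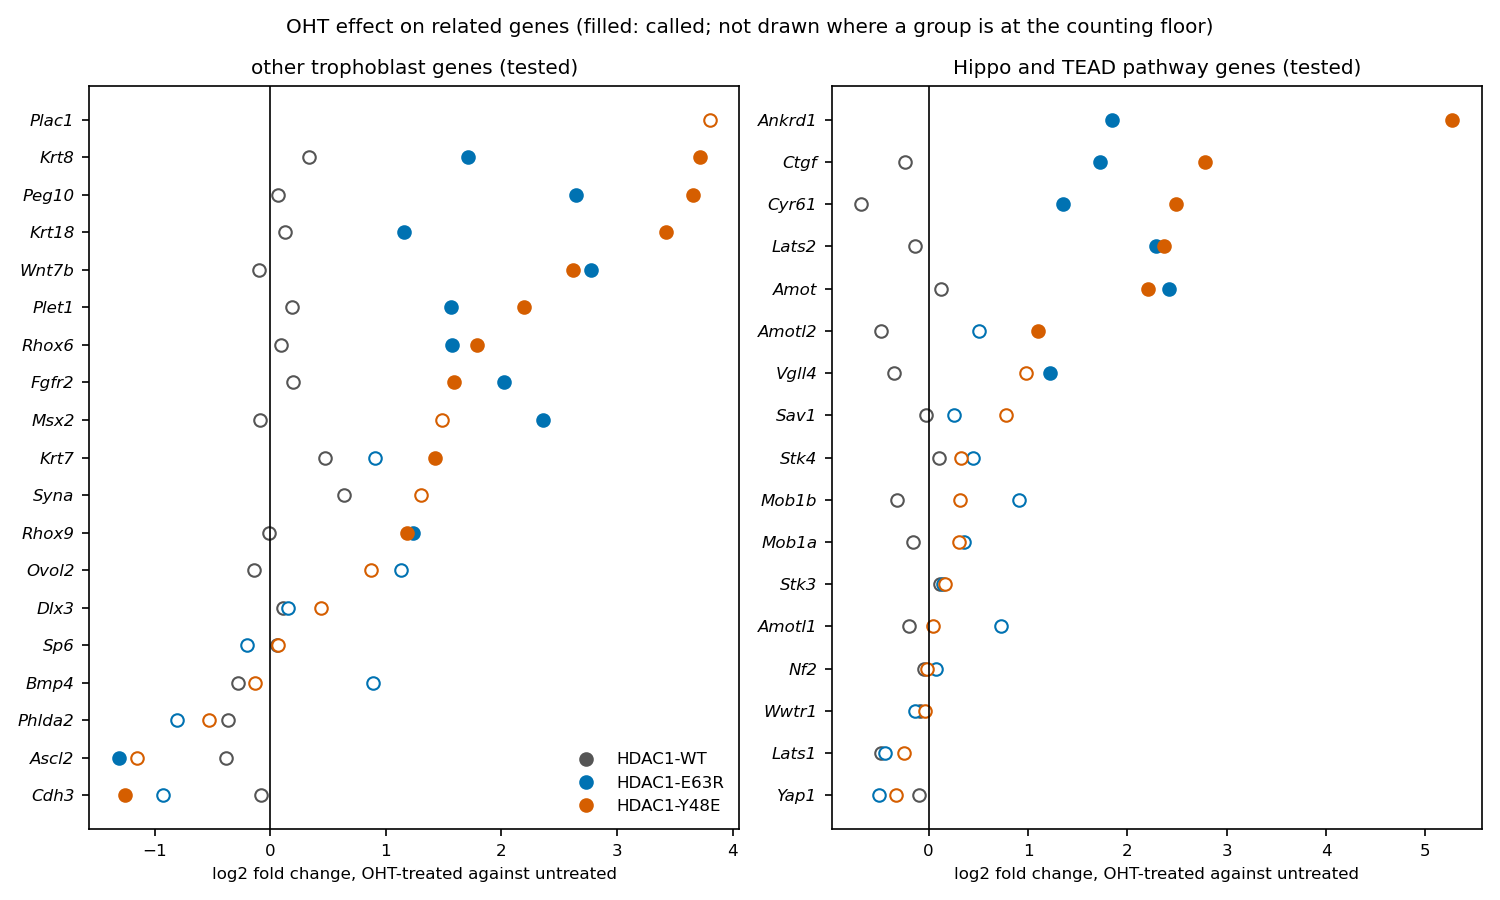
Log2 fold change of OHT-treated against untreated libraries (horizontal axis) for tested genes of the other trophoblast list and the 17 Hippo and TEAD pathway genes, by line; filled points are called, and a point is left out where a group is at or under 3 counts in every library. In the E63R line 9 and in the Y48E line 9 of the trophoblast genes are called up, and HDAC1-WT points are all open.

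Of the 12 pluripotency factors 1 was called down in the E63R line, Klf2 (-1.11), and 7 in the Y48E line, with none called up in either by edgeR or DESeq2. Of all genes, 1.18% and 5.84% were called down in these lines. In the HDAC1-WT line neither tool called any, with 6 at an unadjusted p under 0.05 by edgeR. Their median log2 fold change was -0.20 in E63R and -1.19 in Y48E cells. In the Y48E line the largest were Prdm14 (-3.30), Klf2 (-2.47), Tfcp2l1 (-1.70) and Esrrb (-1.64). None was called in E63R cells by edgeR without replicate 3 of the untreated group.

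Markers of other cell types were counted in the same way, and neither tool called any of these lists' genes in HDAC1-WT cells (0 of the primitive endoderm, 2 of the surface ectoderm and 1 of the fibroblast markers at an unadjusted p under 0.05 by edgeR). The shares of all genes called were 4.74% up in E63R cells, and 10.8% up and 5.84% down in Y48E cells. Of 8 tested primitive endoderm markers 2 were called up in E63R cells (0 without replicate 3 of the untreated group) and 1 in Y48E cells, with summed levels of 78.6 to 158 CPM before and 217 to 230 CPM after OHT in E63R cells and 252 to 278 and 287 to 310 CPM in Y48E cells. Of 6 tested surface ectoderm markers, Tfap2a among them, 3 were called up in E63R and 4 in Y48E cells, with 1 down in the latter, and the sum was 40.3 to 46.9 CPM before and 68.0 to 70.1 CPM after OHT in E63R cells and 47.3 to 56.8 and 81.3 to 88.8 CPM in Y48E cells. Krt5, Krt14 and Krtdap were called up in both lines, while Krt5 was at 0 in all untreated libraries of both. The study had named these 3 genes as raised in the same data, so their calls are not independent of it. Krt14 was at 0 in all untreated Y48E libraries. In each mutant line 3 of the 6 tested were at or under 3 counts in every library of a group. Such a gene can pass the filter only through groups where it is higher, so these counts are a description. The median log2 fold change of the rest was -0.39 in E63R and 0.84 in Y48E cells. Of 3 tested fibroblast markers 2 were called up in each, Col1a1 and Thy1, with Lum at 0 in every library of 5 of the groups, and the sum was 12.9 to 18.7 CPM before and 48.2 to 56.3 CPM after OHT in E63R cells and 23.0 to 27.2 and 80.9 to 94.2 CPM in Y48E cells. In HDAC1-WT cells the sums before and after OHT were 232 to 243 and 211 to 257 CPM for primitive endoderm, 72.8 to 78.6 and 64.4 to 78.1 CPM for surface ectoderm, and 23.4 to 25.2 and 35.9 to 41.9 CPM for fibroblast markers. These sums moved with the trophoblast genes in the mutant lines, and their part in those changes was not tested.

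The genes most like these factors over the 18 libraries were found by Pearson's r of log2 CPM among 16684 genes. The libraries share groups, so the values are a description. For Hand1 they were Rab3b (0.95), Ppl (0.95) and Slc26a2 (0.95), and for Gata3 Vat1l (0.90), Rftn1 (0.90) and 1700017B05Rik (0.90). For Eomes they were Pter (0.94), Pros1 (0.94) and 6330410L21Rik (0.94). For Tfap2c they were Padi2 (0.96), Epas1 (0.96) and Mtf2 (0.96), and for Ets2 Ptpru (0.98), Mmrn2 (0.96) and Efhd1 (0.96). For Tead4 (Smurf2, 0.84) and Tfap2a (Gm10297, 0.81) the closest gene was less alike.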

How the data were processed

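RNA from 18 mouse ESC libraries in 6 groups was sequenced as paired ends. Per the labels' processing notes the tools were HISAT2 2.1.0, SAMtools 1.9 and HTSeq, with mm10, and the authors deposited raw counts per gene symbol. The annotation and strand setting are not given in the sources used here. The 5 entries that name no gene (59.4% to 61.2% of the counts listed per library) were left out.

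After filterByExpr by group and TMM scaling, all 18 libraries entered a single edgeR 4.0.16 quasi-likelihood fit under R 4.3.3, in which each group had its own mean. Adjusted p means the Benjamini-Hochberg value over all genes tested in a fit, which were 18791 in this one. Fits of fewer libraries were filtered and adjusted anew. The standard error was the absolute log2 fold change over the square root of F, and 95% intervals are 1.96 of them. Interactions tested differences between lines. Positions and exon lengths are GENCODE M21 and promoters RefSeq. The procedure was tested on simulated data.

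All 10 genes were described. From each other list up to 4 called genes per comparison were named, by the largest change among those with no overlap and a mean of at least 1 CPM, and others named were chosen after their values were seen. The closest genes to Gata2 and 1 gene of the other trophoblast list are not reported here. The genes and lists were chosen with earlier results of these data known. Other settings were DESeq2 1.42.0, factors by relative log expression, a fit without the filter, a block for the replicate number, fits of the compared libraries alone, a limit of 0.05 on adjusted p, and the omission of single libraries.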

Additional observations from a re-analysis of the deposited data

Results flagged for a closer look

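By the interaction test in edgeR's model the effect of OHT differed between lines in 4 cases. The effect on Hand1 was 3.47 higher on the log2 scale in E63R than in HDAC1-WT cells (adjusted p = 5.67e-06) and 3.40 higher in Y48E than in HDAC1-WT cells (adjusted p = 1.26e-06), and the level of Hand1 was higher in every OHT-treated library of both mutant lines than in any untreated library of the same line. The effect on Gata2 was 1.19 higher in Y48E than in HDAC1-WT cells (adjusted p = 0.00367). The effect on Tfap2c differed by -1.01 between Y48E and E63R cells (adjusted p = 0.00336), a value at the limit of 1 that was -0.84 without replicate 3 of the untreated E63R group.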

How the results depend on the processing

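Over the other settings named in the methods, 872 of the gene results kept direction and side of the threshold, 16 lost and 6 gained a call, and 17, none of them called, changed sign. The effects on Hand1 in E63R and Y48E cells stayed between 3.14 and 3.47. With an adjusted p limit of 0.05, 2 of the genes were called higher in E63R than HDAC1-WT effects. The gene called lower in Y48E than E63R effects, Tfap2c, was not called (a count of 0) with relative log expression factors, in a fit of the libraries compared or by DESeq2. Only 1 gene was called up in E63R cells with only those libraries. The cause of these changes was not tested. Against OHT-treated HDAC1-WT libraries 1 was called down in E63R and 2 in Y48E cells. These values are differences between lines, not effects of OHT, and hold any difference between the lines before OHT. Their sign was opposite to that of the OHT effect for Eomes (-1.07), Gata2 (0.95), Tfap2c (-0.90) and Ets2 (-0.96) in E63R cells. In Y48E cells the sign was opposite for Eomes (-0.81), Tfap2a (-0.51) and Ets2 (-1.13).

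Leaving out a library gave 1 to 2 genes called up for E63R minus HDAC1-WT and for Y48E minus HDAC1-WT, and 0 to 1 called down for Y48E minus E63R. The ranges of values that changed sign were -0.36 to 0.14 for Hand1 and -1.03 to 0.19 for Tfap2a in HDAC1-WT cells, -0.052 to 0.17 for Tead4 in Y48E cells, -0.72 to 0.52 for Tfap2a in E63R minus HDAC1-WT effects, -0.12 to 0.0038 for Ets2 in Y48E minus HDAC1-WT effects, -0.11 to 0.28 for Eomes and -0.20 to 0.032 for Hand1 in Y48E minus E63R effects, and -0.24 to 0.28 for Gata3 in untreated Y48E minus HDAC1-WT cells.

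Same-numbered libraries were not treated as paired, and their deviations correlated between -0.051 and 0.044 over comparisons within and between lines. Within the Y48E line these values were all above 0 (0.018 to 0.033), so whether the numbers mark pairs is not settled. A block for the replicate number changed no call on the 10 genes, and turned the untreated Gata3 difference between Y48E and HDAC1-WT cells from 0.00 to -0.011 (-0.00059 with only those libraries). Counts over all genes moved by over 1.5 times as follows. For OHT in HDAC1-WT cells 10 became 26 at the 0.05 limit, 50 without a filter, 5 with the block, 22 with only those libraries, 35 with DESeq2 and 3 to 7 with a library left out. For E63R cells 1111 became 1716 at 0.05 and 388 with only those libraries. For E63R minus HDAC1-WT 316 became 594, 530 (no filter), 144, 490 (DESeq2) and 206 to 486, for Y48E minus E63R 246 became 491, 419 (no filter) and 184 to 465, and for untreated E63R minus HDAC1-WT 1437 became 504. Scaling factors shifted the median of all genes by at most 0.043. Depth limits Cdx2, Elf5 and Tfap2a, which held 21, 18 and 39 counts at most in a library.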

Other observations

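Of 17 paralogs of these factors, genes of the same families that are not themselves among the 10, 12 were tested. None was called in HDAC1-WT or E63R cells by edgeR (1 and 7 at an unadjusted p under 0.05) or DESeq2, and 3 were called up and 1 down in Y48E cells, where DESeq2 called 3 up and 0 down. By edgeR 10.8% of all genes were called up and 5.84% down in Y48E cells. Ets1, a paralogue of Ets2 known in endothelial and blood cells, was at 3.43 ± 0.451 CPM (n = 3) in untreated and 14.2 ± 1.52 CPM in OHT-treated Y48E cells (log2 fold change 2.04, SE 0.38, adjusted p = 1.77e-04). Tead3, a paralogue of Tead4 expressed in the placenta, was at 8.77 ± 0.603 and 23.0 ± 4.25 CPM (1.39, SE 0.20, adjusted p = 7.05e-06). Tbx21, a T-box gene known from T lymphocytes, had 1 count in all untreated and 19 to 28 counts in each OHT-treated Y48E library. In the E63R line, where it was not called, it had 1 to 5 counts in each untreated and 13 to 41 in each OHT-treated library. Elf3, an epithelial ETS factor gene related to Elf5, fell in Y48E cells (-1.03, SE 0.12, adjusted p = 7.71e-07). Tfap2b and Tfap2d were at 0 counts in all 18 libraries.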
